A study of Mus musculus with 12 samples.

Results

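Ly6C-high macrophages recruited to the fatty, inflamed liver were compared with the Ly6C-high monocytes circulating in mice on the same diet, through the positions of open chromatin in each population. The assay, ATAC-seq, uses a transposase that cuts accessible DNA and tags the cut ends for sequencing, and stretches with many cuts are called peaks. The liver population, Ly6CHi-RM, consisted of Cd11b-Hi Ly6CHi recruited liver macrophages, and the circulating population, Blood-Ly6CHi-NASH, of Ly6C-Hi blood monocytes. Both were sorted from C57BL/6J mice fed the NASH diet, a model of nonalcoholic steatohepatitis, with 2 libraries per population and with age, sex and pooling not given in the sources used here. Their lists held 131108 of the 334073 peaks of the series, from 2 of 6 lists and 4 of 12 libraries. The other 4 lists came from recruited macrophages with low Ly6C (Ly6CLo-RM), Tim4-positive Kupffer cells on the NASH diet (KC-N) and on a control diet (KC-H), and Tim4-negative F4/80-high cells on the NASH diet (KN-RM).

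A peak was called list-specific when no peak centre of the other list lay within 1000 bp, and shared otherwise. Because the blood list was longer, each comparison was made with the lists as deposited and again with both lists at equal length, the 61492 best-scored peaks of each. Each list came from both libraries of its group, so no value per library exists, differences have no test or p-value, and all intervals are 95% Wilson intervals that cover counting error only. The protocol in the labels describes perfusion and enzymatic digestion of the liver with flavopiridol, a transcription inhibitor, and describes no such step for blood. For each difference given here, the tissue and the way its cells were isolated cannot be told apart.

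Classical monocytes leave the bone marrow with high Ly6C and the receptor Ccr2, circulate briefly, and enter inflamed tissue, where they become macrophages. In myeloid cells the factor PU.1 holds many enhancers open, and signal-dependent factors such as AP-1, NF-kB and C/EBP act on those and open further ones. AP-1 is a pair of Fos, Jun or Atf family proteins bound to a short palindrome, and many of its members are encoded by early response genes that cells switch on within minutes of a stimulus.

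The promoters that differed show the kind of region at issue. The sequences below are the 250 bases before the gene start, from RefSeq on GRCm38.p6, 5′ to 3′ on the gene's strand, for the 3 best-scored list-specific promoter peaks in each direction. Slamf7 and Mt2 are added as examples with an AP-1 match and were chosen after their values were seen. Capitals mark matches to any of 12 short motifs searched on both strands, among them AP-1 (TGANTCA), RUNX (TGTGGT), PU.1 (GAGGAAGT), C/EBP (TTGCNNAA) and the GC box (GGGCGG). A match describes the letters and is not a measured binding site.

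The first set had a Ly6CHi-RM-specific peak. Fblim1 encodes an adaptor of cell adhesions (chr4:141606053-141606302, minus strand), C1qc a chain of complement C1q (chr4:136892915-136893164, minus strand) and H2-Q6 a nonclassical MHC class I protein (chr17:35424600-35424849, plus strand). Slamf7 encodes a leukocyte receptor (chr1:171649000-171649249, minus strand) and Mt2 a metallothionein (chr8:94172368-94172617, plus strand).
Fblim1: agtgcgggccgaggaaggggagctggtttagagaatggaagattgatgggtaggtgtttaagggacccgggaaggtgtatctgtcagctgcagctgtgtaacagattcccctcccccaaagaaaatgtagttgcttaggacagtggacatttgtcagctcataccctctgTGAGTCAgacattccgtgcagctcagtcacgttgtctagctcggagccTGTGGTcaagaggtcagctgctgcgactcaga
C1qc: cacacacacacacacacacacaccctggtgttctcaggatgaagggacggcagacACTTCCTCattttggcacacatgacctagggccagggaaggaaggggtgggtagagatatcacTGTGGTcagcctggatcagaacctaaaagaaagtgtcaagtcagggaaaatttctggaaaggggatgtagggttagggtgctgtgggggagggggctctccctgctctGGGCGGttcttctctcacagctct
H2-Q6: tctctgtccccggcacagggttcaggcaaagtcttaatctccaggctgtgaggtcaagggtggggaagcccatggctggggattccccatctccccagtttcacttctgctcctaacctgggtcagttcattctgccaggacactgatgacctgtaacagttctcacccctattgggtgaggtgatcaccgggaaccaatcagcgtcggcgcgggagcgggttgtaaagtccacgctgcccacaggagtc
Slamf7: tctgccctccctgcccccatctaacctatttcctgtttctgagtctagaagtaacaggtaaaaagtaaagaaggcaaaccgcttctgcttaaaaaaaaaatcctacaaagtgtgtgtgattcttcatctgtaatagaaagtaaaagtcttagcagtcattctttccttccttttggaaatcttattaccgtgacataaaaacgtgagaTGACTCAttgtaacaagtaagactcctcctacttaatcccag
Mt2: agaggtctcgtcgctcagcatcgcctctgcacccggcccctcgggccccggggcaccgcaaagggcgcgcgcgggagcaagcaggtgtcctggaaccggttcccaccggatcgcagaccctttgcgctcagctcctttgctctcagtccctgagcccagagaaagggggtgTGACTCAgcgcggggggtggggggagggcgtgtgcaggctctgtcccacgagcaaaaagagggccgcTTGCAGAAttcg
The second set had a blood-specific peak. Lhx2 encodes a developmental homeobox factor (chr2:38351058-38351307, plus strand), Kat2a a histone acetyltransferase (chr11:100712468-100712717, minus strand) and Sdc3 a heparan sulfate proteoglycan (chr4:130792287-130792536, plus strand).
Lhx2: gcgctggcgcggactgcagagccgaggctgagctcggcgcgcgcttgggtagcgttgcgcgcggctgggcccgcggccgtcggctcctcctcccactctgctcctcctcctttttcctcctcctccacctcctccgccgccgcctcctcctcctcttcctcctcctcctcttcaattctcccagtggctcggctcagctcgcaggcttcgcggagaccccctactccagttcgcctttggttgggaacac
Kat2a: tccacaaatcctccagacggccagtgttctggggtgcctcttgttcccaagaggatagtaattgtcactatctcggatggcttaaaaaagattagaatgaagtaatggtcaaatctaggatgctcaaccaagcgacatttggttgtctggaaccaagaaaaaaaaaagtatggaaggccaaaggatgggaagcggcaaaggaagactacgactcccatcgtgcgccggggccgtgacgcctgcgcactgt
Sdc3: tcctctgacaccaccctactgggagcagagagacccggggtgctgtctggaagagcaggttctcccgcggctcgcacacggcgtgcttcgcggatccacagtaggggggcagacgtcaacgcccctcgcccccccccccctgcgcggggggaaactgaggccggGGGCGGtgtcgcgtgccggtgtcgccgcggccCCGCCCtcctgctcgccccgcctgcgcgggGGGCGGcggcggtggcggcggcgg

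The peak at Fblim1 lay 29 bp from the gene start with a normalized tag count of 76.1 and a score of 64, the C1qc peak 113 bp away with 44.3 and 59, and the H2-Q6 peak 33 bp away with 110.4 and 56. All 3 were also in Ly6CLo-RM, KC-N, KN-RM and KC-H, so among the 6 lists only blood lacked them. H2-Q6 belongs to a family of close copies, and reads could be split between them. The blood-specific peaks at Lhx2 (tag count 64.5), Kat2a (73.3) and Sdc3 (61.6) were each found in 1 further list, KC-H. Tag count and score are the authors' own values for a peak, used here to describe and rank peaks within a list and not to compare heights between lists.

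AP-1 letters were more frequent in the promoters that were open only in the liver list of this pair. Promoter windows of 300 bases, from 250 before to 50 after the start, were assigned by the peak centres inside them: 123 windows held a Ly6CHi-RM-specific and no shared peak, 358 a blood-specific and no shared peak, and 10446 a shared peak. TGANTCA occurred in 25 of the 123 (20.3%, 14.2% to 28.3%), against 5.03% (3.20% to 7.81%) of the blood-specific, 4.81% of the shared and 7.81% of all 32851 windows. RUNX letters occurred in 27.6% (20.5% to 36.1%) of Ly6CHi-RM-specific and 14.8% (11.5% to 18.9%) of blood-specific windows, with 12.2% in shared and 16.8% in all. The intervals of Ly6CHi-RM-specific and blood-specific windows did not overlap for either motif. A gene with several starts has several windows, and the intervals treat each window as independent.

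Base composition moved with these classes. Median GC content was 55.0% in Ly6CHi-RM-specific, 58.2% in blood-specific, 62.0% in shared and 52.7% in all windows. Within windows of 50% to 60% GC, AP-1 letters were in 10 of 39 Ly6CHi-RM-specific (25.6%, 14.6% to 41.1%) and 7 of 132 blood-specific windows (5.30%, 2.59% to 10.5%), against 6.36% of shared ones. Below 50% GC the shares were 25.0% (14.2% to 40.2%), 9.86% (4.86% to 19.0%) and 11.3%, and from 60% up 11.4% (4.95% to 24.0%), 2.58% (1.01% to 6.45%) and 3.01%. The share was therefore highest in Ly6CHi-RM-specific windows in each GC class, with overlapping intervals below 50% and from 60% up. RUNX letters did not keep their order in every class: below 50% GC they were in 32.5% of Ly6CHi-RM-specific and 32.4% of blood-specific windows, at 50% to 60% in 33.3% and 15.2%, and from 60% up in 18.2% and 6.45%. PU.1 letters were in 8.94% (5.07% to 15.3%), 3.35% (1.93% to 5.77%), 3.90% and 3.20% of Ly6CHi-RM-specific, blood-specific, shared and all windows. Their order also turned with GC: below 50% they were in 15.0% of Ly6CHi-RM-specific and 8.45% of blood-specific windows, and at 50% to 60% in 12.8% and 2.27%. From 60% up they were in 0 of 44 Ly6CHi-RM-specific windows, 1.94% of blood-specific and 2.82% of shared ones. C/EBP letters (8.13% and 12.3%), interferon response element letters GAAANNGAA (4.07% and 9.22%) and KLF letters GGGTGTGG (4.07% and 7.54%) were less frequent in Ly6CHi-RM-specific than in blood-specific windows, with overlapping intervals. NF-kB letters GGGANNTTC occurred at 4.07% and 3.63%, close to the 3.94% of all windows.

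Most open chromatin was common to both populations. As deposited, 4155 of 61492 Ly6CHi-RM peaks were list-specific (6.76%, 6.56% to 6.96%), against 11057 of 69616 blood peaks (15.9%, 15.6% to 16.2%). At equal length the counts were 6069 (9.87%, 9.64% to 10.1%) and 6629 (10.8%, 10.5% to 11.0%). Shared peaks were similar in number in both lists, 57337 in Ly6CHi-RM and 58559 in blood as deposited. Cutting the lists to equal length therefore brings the list-specific counts together largely by construction. A centre of the other list lay within 100 bp of 88.3% of Ly6CHi-RM and 78.0% of blood peaks. In the last 100 bp inside the limit lay 182 shared Ly6CHi-RM and 219 shared blood peaks, and in the first 100 bp outside it 140 and 197 list-specific ones. More than 10 kb from any peak of the other list lay 27.2% of the Ly6CHi-RM-specific and 43.5% of the blood-specific peaks.

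List-specific peaks were mostly low-scoring ones. Their median score was 27 in Ly6CHi-RM and 25 in blood, where shared peaks had 49 and 53, and the highest scores were 98 and 91. None of the 10109 Ly6CHi-RM and 10902 blood peaks scored above 100 was list-specific. With each list cut into 4 equal classes by score, from class 1 (best) to class 4, 16 Ly6CHi-RM and 5 blood peaks were list-specific in class 1, and 2924 and 7951 in class 4. At scores from 61 to 100 the order of the lists turned, with 0.517% (0.405% to 0.659%) of Ly6CHi-RM and 0.243% (0.174% to 0.339%) of blood peaks list-specific.

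**Figure D1:**
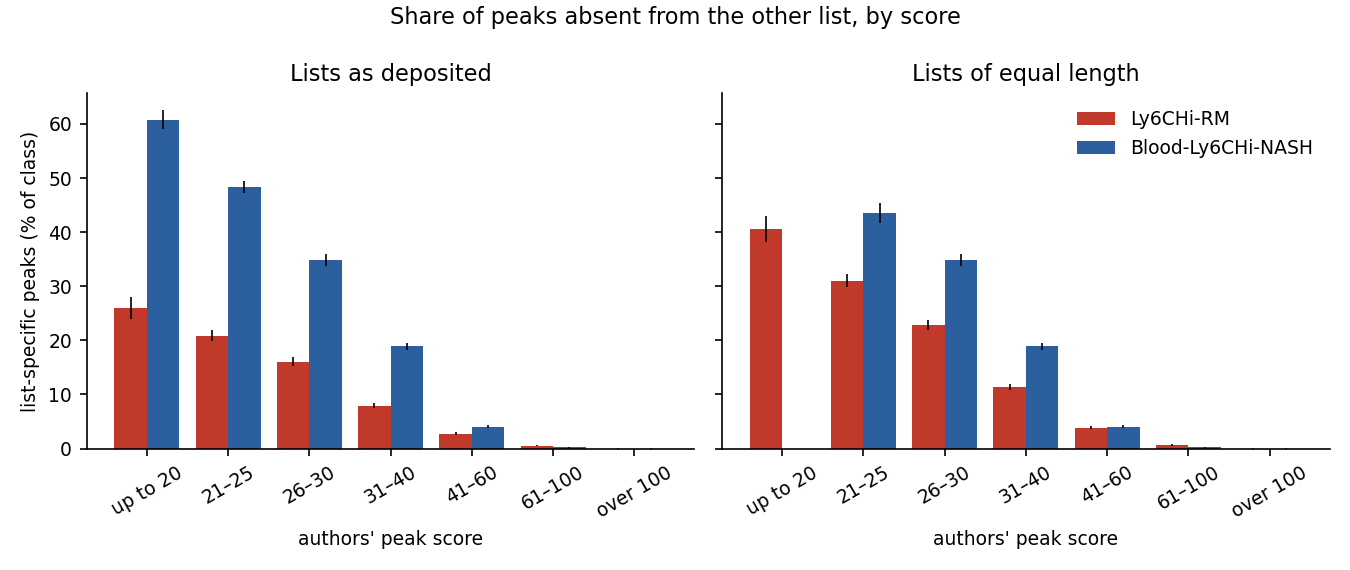
Percent of peaks with no centre of the other list within 1000 bp (vertical axis) by the authors' peak score (horizontal axis), for Ly6CHi-RM (red, left bar) and Blood-Ly6CHi-NASH (blue, right bar), with 95% Wilson intervals. In both lists the share falls with score and is 0 above 100, and at equal length no blood peak is left in the lowest class.

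The peaks that Ly6CHi-RM held and blood lacked were often present in the other recruited liver macrophages. Of the 4155, 56.8% (55.3% to 58.3%) had a centre within 1000 bp in Ly6CLo-RM, 25.8% in KN-RM, 39.0% in KC-N, 38.0% in KC-H, and 27.5% were in none of the 4. Of the 11057 blood-specific peaks, 11.3% (10.7% to 11.9%) were found in Ly6CLo-RM, 4.14% in KN-RM, 13.5% in KC-N, 23.1% in KC-H, and 68.0% were in none. Shared peaks of Ly6CHi-RM were in Ly6CLo-RM at 83.6% and in all 4 lists at 55.5%, against 14.8% of Ly6CHi-RM-specific and 1.11% of blood-specific peaks. The leading combination after none was Ly6CLo-RM alone for the Ly6CHi-RM-specific peaks (903, 21.7%) and KC-H alone for the blood-specific peaks (1136, 10.3%).

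Low-scoring peaks are found again less often, so shares were set beside shared peaks of the same score class. In class 3, 77.1% (74.4% to 79.6%) of Ly6CHi-RM-specific peaks were in Ly6CLo-RM, close to the 78.9% (78.2% to 79.6%) of shared Ly6CHi-RM peaks. In class 3 of the blood list 13.1% (11.9% to 14.4%) of blood-specific peaks were in Ly6CLo-RM, far below the 71.5% (70.7% to 72.2%) of shared blood peaks. Class 4 gave 47.1% (45.3% to 48.9%) against 55.2% for Ly6CHi-RM and 10.3% (9.66% to 11.0%) against 66.8% for blood. This was not particular to Ly6CLo-RM. In class 3 of the Ly6CHi-RM list, list-specific and shared peaks were found in KN-RM at 38.2% and 40.9%, in KC-N at 53.3% and 59.8%, and in KC-H at 45.2% and 69.8%. In class 3 of the blood list the shares were 4.94% and 39.9% in KN-RM, 15.9% and 56.2% in KC-N, and 27.2% and 65.0% in KC-H. Class 3 regions that blood lacked were thus found in Ly6CLo-RM and KN-RM nearly as often as shared regions. For KN-RM this did not hold in other classes, with 56.7% against 68.4% in class 2 and 19.0% against 28.5% in class 4. Class 3 regions that Ly6CHi-RM lacked were less frequent than shared ones in all 4 other lists. The rule partly sets this, because the other 4 lists are also of liver cells. Blood-specific peaks were picked for absence from a liver list, and shared blood peaks for presence in it. Ly6CHi-RM-specific peaks had only to be absent from blood, so the 2 directions are not like for like.

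**Figure D2:**
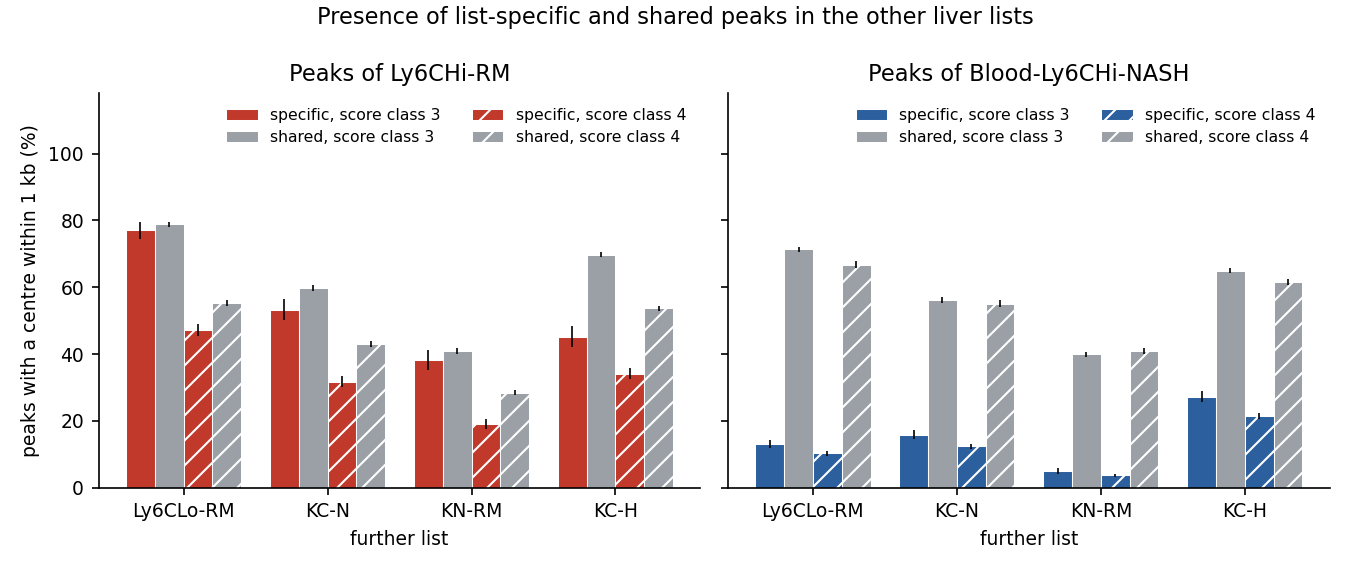
Percent of peaks (vertical axis) that have a centre within 1000 bp in each of the other 4 lists (horizontal axis), for list-specific (coloured) and shared (grey) peaks of Ly6CHi-RM (left) and Blood-Ly6CHi-NASH (right), in score classes 3 (plain) and 4 (hatched), with 95% Wilson intervals. In Ly6CLo-RM class 3 shows 77.1% against 78.9% for Ly6CHi-RM and 13.1% against 71.5% for blood.

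In both directions list-specific peaks lay near gene starts less often than shared ones, which the rule partly sets. A peak within 1000 bp of a promoter peak of the other list is counted as shared. With a distance of 500 bp between lists, the shares near a start were 10.7% for Ly6CHi-RM-specific and 9.43% for blood-specific peaks. The distance of 1000 bp gave the opposite order. Within 1000 bp of a start were 5.45% (4.79% to 6.19%) of Ly6CHi-RM-specific and 6.40% (5.95% to 6.88%) of blood-specific peaks, where shared peaks had 27.2% and 27.6%. In score class 4 the list-specific shares were 5.45% and 6.18% and the shared ones 15.2% and 19.4%. Inside a protein-coding gene lay 49.6% of Ly6CHi-RM-specific and 56.1% of blood-specific peaks, with 55.2% and 55.5% for shared ones. The genes they were assigned to had a median length of 43.4 kb and 60.1 kb, against 38.4 kb and 38.9 kb for shared peaks.

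Each peak was assigned to the protein-coding gene that contains its centre, or otherwise to the nearest one within 100 kb. As deposited, 2811 of 15062 genes with a peak (18.7%) had at least 1 Ly6CHi-RM-specific peak and 6030 (40.0%) at least 1 blood-specific peak. Ly6CHi-RM-specific peaks outnumbered blood-specific ones at 1586 genes (10.5%), and the reverse held at 5185 (34.4%). At equal length those shares were 26.2% and 28.2%, then 19.0% and 21.5%. At least 5 Ly6CHi-RM-specific peaks were found at 37 genes (0.246%) and at least 5 blood-specific peaks at 255 (1.69%), with 73 (0.494%) and 79 (0.535%) genes at equal length.

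The 15 genes with the most Ly6CHi-RM-specific peaks were mostly shorter than the 15 with the most blood-specific ones. The Ly6CHi-RM leaders had 6 to 13 such peaks and a median length of 26.4 kb, while the 15 leading blood genes had 9 to 12 and a median length of 244 kb, and at equal length the medians were 27.7 kb and 246 kb. In order, 14 of the Ly6CHi-RM leaders were Btg1, Atf3, Tnfaip3, Tspoap1, Itga9, Rftn1, Dusp1, Cebpb, Ccnl1, Litaf, Snx18, Pip4k2a, Nfkbiz and Actr3. The leading blood genes were Nav2, Alb, Tcf4, Prex1, Prkag2, Xylt1, Clasp2, Foxp1, Gas7, Zmiz1, Ssbp2, Foxn3, Asap1, Dgkh and Erg. Long genes hold more peaks of every kind, so a count per gene does not describe how much of a gene changed.

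**Figure D3:**
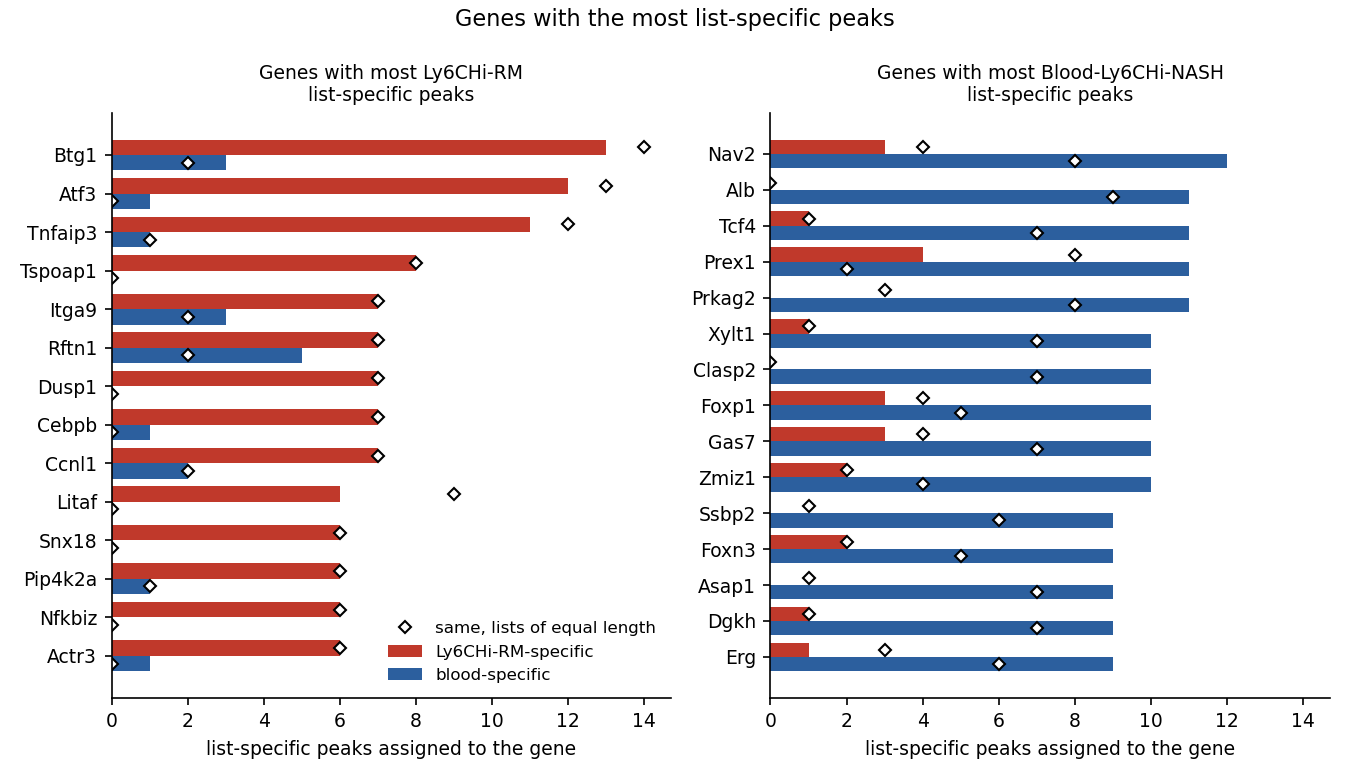
Number of list-specific peaks assigned to each gene (horizontal axis) for 14 of the 15 genes that lead in Ly6CHi-RM (left) and the 15 that lead in Blood-Ly6CHi-NASH (right). Red bars are Ly6CHi-RM-specific and blue bars blood-specific peaks as deposited, and diamonds mark the same counts with lists of equal length. Prex1, at 4 and 11 as deposited, stands at 8 and 2 at equal length.

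Atf3 encodes a stress-induced AP-1 family factor (chr1:191170296-191183333). It had 29 peaks in Ly6CHi-RM against 15 in blood, of which 12 were Ly6CHi-RM-specific and 1 blood-specific, and 13 and 0 at equal length. A peak at -47.4 kb from its start (negative values lie before the start; chr1:191230592-191230792, tag count 166.2) had the highest score of all Ly6CHi-RM-specific peaks, 98, together with one at Serpina3f, and was also in Ly6CLo-RM, KC-N and KN-RM. Another 6 lay between 12.0 and 15.1 kb after the start, around the end of the gene, with tag counts from 19.3 to 38.5. Ly6CLo-RM held 11 of the 12 Ly6CHi-RM-specific peaks at Atf3. Counted by position instead of by gene, the Ly6CHi-RM-specific run with the most peaks as deposited lay here, and it came after a run on chromosome 9 at equal length. It held 15 peaks over 24.4 kb (chr1:191162331-191186765), where Ly6CHi-RM had 24 peaks in all, blood 5, Ly6CLo-RM 30, KC-N 11, KN-RM 7 and KC-H 13.

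Early response genes as a group had a higher share of Ly6CHi-RM-specific peaks than genes in general. The 20 genes had 40 list-specific of 289 Ly6CHi-RM peaks (13.8%, 10.3% to 18.3%) and 9 of 242 blood peaks (3.72%, 1.97% to 6.92%), where all genes had 6.61% and 15.6%. Ly6CHi-RM-specific peaks were in the majority at 11 of the 20 genes and blood-specific ones at 1, with a median difference of 1. Over all genes they were in the majority at 10.5% and 34.4%, with a median of 0. At equal length the list had 48 of 289 and 5 of 223 (16.6% and 2.24%), beside 9.67% and 10.5% for all genes. The majority there was Ly6CHi-RM-specific at 15 genes and blood-specific at 0, beside 19.0% and 21.5% of all genes. Atf3 gave 12 of the 40 and Dusp1, a phosphatase that switches off stress kinases, gave 7. Dusp1 had 26 Ly6CHi-RM and 15 blood peaks, with 7 Ly6CHi-RM-specific peaks of tag counts 17.7 to 61.5 and no blood-specific one. Fosb, a subunit of AP-1, had 19 and 10 peaks with 3 Ly6CHi-RM-specific, and Btg2, which restrains cell division, 15 and 12 with 3 against 1. Other members were even: Fos had 31 peaks in each list with 2 list-specific in each, and Fosl2, Junb, Jund, Egr1, Ier2, Zfp36 and Nr4a1 had no list-specific peak as deposited.

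Inflammation genes of the NF-kB list also had a higher share of Ly6CHi-RM-specific peaks than genes in general, many of them at a few members. Its 21 genes had 29 of 187 Ly6CHi-RM peaks (15.5%, 11.0% to 21.4%) and 13 of 165 blood peaks (7.88%) list-specific, beside 6.61% and 15.6% for all genes, and the intervals overlapped. They were in the majority at 9 genes for Ly6CHi-RM and 4 for blood, with a median difference of 0. At equal length they numbered 36 of 187 and 8 of 153 (19.3% and 5.23%), beside 9.67% and 10.5% for all genes. Tnfaip3 gave 11 of the 29 and Nfkbiz 6, so the share does not describe NF-kB genes in general. Tnfaip3, which encodes the NF-kB inhibitor A20 (chr10:19000910-19015410), had 22 peaks in Ly6CHi-RM against 11 in blood, with 11 Ly6CHi-RM-specific and 1 blood-specific. Those 11 were spread from -89.7 to 72.0 kb of the start, had tag counts of 17.7 to 35.4, and were all present in Ly6CLo-RM, with 7 each in KC-N and KN-RM and 6 in KC-H. Nfkbiz, an NF-kB cofactor, had 25 and 19 peaks with 6 against 0 list-specific, and all 6 were in Ly6CLo-RM. Outside the list, Litaf, an endosomal protein first described as a regulator of TNF, had 24 and 18 peaks with 6 against 0, and 9 against 0 at equal length. Birc3, an inhibitor of apoptosis, went the other way with 6 and 9 peaks and 0 against 4, but only 0 against 1 at equal length. Tnf, Il6, Nfkb2, Rela, Relb, Cxcl1, Ccl2 and Ccl4 had no list-specific peak as deposited.

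**Figure D4:**
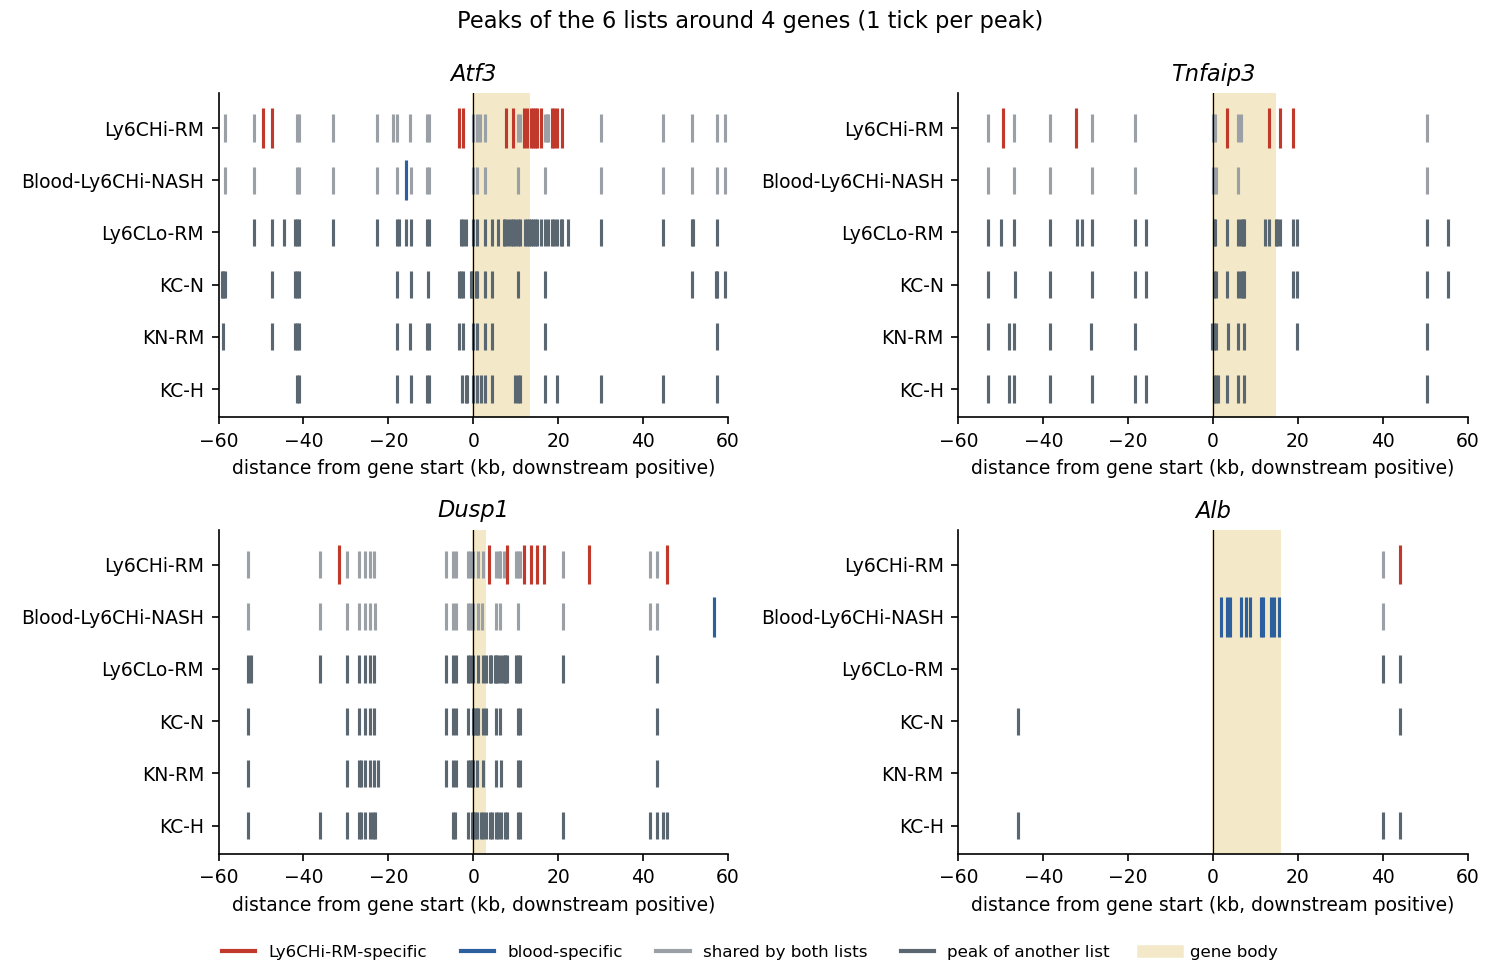
Peaks of the 6 lists (rows, 1 tick per peak centre) within 60 kb of the start of Atf3, Tnfaip3, Dusp1 and Alb (horizontal axis, kb from the gene start, downstream positive), with the gene body shaded. Red ticks are Ly6CHi-RM-specific, blue ticks blood-specific, light grey ticks shared by both lists and dark ticks peaks of the other 4 lists. Ly6CHi-RM-specific peaks at Atf3 crowd around the gene's end where Ly6CLo-RM is also dense, and at Alb 11 blood-specific peaks fill the gene body, which is empty in the other 5 lists.

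Genes linked to lipid-associated, Trem2-type macrophages had more list-specific peaks in Ly6CHi-RM than in blood, many of them at a few members. The 20 genes had 37 of 177 Ly6CHi-RM peaks (20.9%, 15.6% to 27.5%) and 20 of 158 blood peaks (12.7%, 8.35% to 18.7%) list-specific, more at 11 genes in Ly6CHi-RM and at 5 in blood, with a median difference of 1. The intervals overlapped, and all genes had 6.61% and 15.6%. At equal length the list had 42 against 15 (23.7% and 10.3%, with 9.67% and 10.5% for all genes). Atf3, also an early response gene, gave 12 of the 37. Hilpda, which protects lipid droplets from breakdown (chr6:29272488-29275449), had 5 Ly6CHi-RM and 1 blood peaks. Its 4 Ly6CHi-RM-specific peaks lay at -26.6, -25.7, -7.96 and -1.29 kb from the start with tag counts of 106.3, 48.4, 29.2 and 119.3, and all 4 were in each of the other 4 lists. Cd36, a fatty acid and oxidised lipid receptor, had 11 and 8 peaks with 4 against 1 list-specific. Trem2 itself had 4 and 3 peaks with 1 against 0, Gpnmb 8 and 6 with 1 against 0, and Cd9 16 and 14 with 2 against 2. Spp1, encoding osteopontin, had 5 and 7 peaks with 0 against 2, and 1 against 1 at equal length. Apoe, which carries lipid out of macrophages, had 2 and 6 with 0 against 3, and all 3 of its blood-specific peaks were in KC-H.

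Antigen presentation genes had 13 of 99 Ly6CHi-RM peaks (13.1%, 7.84% to 21.2%) and 7 of 85 blood peaks (8.24%, 4.05% to 16.0%) list-specific, more at 6 genes in Ly6CHi-RM and at 1 in blood, with a median difference of 0.5 and overlapping intervals, beside 6.61% and 15.6% for all genes. H2-Aa, an MHC class II chain, had 5 and 3 peaks with 2 against 0, at tag counts of 20.8 and 113.0, and Ly6CLo-RM had 17 peaks there. Cd74, the class II chaperone, had 12 and 7 with 2 against 0. Osm, a cytokine of myeloid cells, had 10 and 5 peaks, with 1 Ly6CHi-RM-specific peak of tag count 100.5 that was in Ly6CLo-RM and in no other list. The C1qc promoter peak shown above was the only peak at that gene in Ly6CHi-RM, and blood had 0.

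Several leading liver loci are not inflammation genes. Btg1, an inhibitor of cell division, had 35 and 16 peaks with 13 against 3 list-specific, and a run of 12 over 12.5 kb after the gene (chr10:96624602-96637147) held 17 peaks of Ly6CHi-RM, 1 of blood, 13 of Ly6CLo-RM, 1 of KC-N, 0 of KN-RM and 1 of KC-H. The 16 housekeeping genes, chosen as a control, had 10 of 86 Ly6CHi-RM peaks (11.6%, 6.44% to 20.1%) and 5 of 80 blood peaks (6.25%, 2.70% to 13.8%) list-specific. Ly6CHi-RM-specific peaks were in the majority at 1 of the 16 genes and blood-specific ones at 3. That 1 gene gave most of the list's Ly6CHi-RM-specific peaks at either length, so the share does not describe housekeeping genes in general. As deposited, the larger share in Ly6CHi-RM than in blood, with overlapping intervals, came from that 1 gene. At equal length this control list had 13 against 3 (15.1% and 4.17%), beside 9.67% and 10.5% for all genes. Ly6CHi-RM-specific peaks were then in the majority at 3 genes and blood-specific ones at 1. Cebpb, the C/EBP factor of inflammation, had 38 and 30 peaks with 7 against 1.

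A microRNA of blood cells lay inside the run assigned to Tspoap1, a benzodiazepine receptor adaptor. Mir142 (chr11:87756864-87756927), abundant in leukocytes, had 20 Ly6CHi-RM and 11 blood peaks within 10 kb, 8 Ly6CHi-RM-specific and 0 blood-specific, while Ly6CLo-RM had 23 peaks there, KC-H 15, KC-N 8 and KN-RM 7. Mir155 (chr16:84714140-84714204), induced in activated macrophages, had 1 Ly6CHi-RM peak, which was Ly6CHi-RM-specific with a tag count of 49.5 at 859 bp from the hairpin, and 0 blood peaks. Mir22 had 12 and 7 peaks with 3 against 0, and Mir21a 9 and 6 with 2 against 0. Of 1005 hairpins, 66 had a Ly6CHi-RM-specific and 134 a blood-specific peak within 10 kb, so these 4, chosen after their values were seen, run against the overall count. Their main mature sequences from RefSeq are shown with the seed, bases 2 to 8, in capitals, since the seed decides which messages a microRNA pairs with.
mmu-miR-142a-3p: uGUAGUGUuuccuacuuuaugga
mmu-miR-155-5p: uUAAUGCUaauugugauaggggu
mmu-miR-22-3p: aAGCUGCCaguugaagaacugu
mmu-miR-21a-5p: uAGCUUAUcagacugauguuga

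Some genes with many blood-specific peaks encode regulators of immature or lymphoid cells, but the progenitor list stayed near all genes as deposited. The lymphoid lists are given with the marker genes below. The bone marrow granule and progenitor list had 4 of 46 Ly6CHi-RM peaks (8.70%) and 7 of 52 blood peaks (13.5%) list-specific, beside 6.61% and 15.6% for all genes, and 6 against 3 at equal length. Zbtb16 (chr9:48651797-48836225), encoding the factor PLZF of innate-like lymphocytes and progenitors, had 9 peaks in Ly6CHi-RM against 14 in blood. The 6 blood-specific peaks had tag counts of 26.2 to 66.9, with none Ly6CHi-RM-specific, also at equal length, and 1 of the 6 was in Ly6CLo-RM. Erg, a factor of stem and endothelial cells, had 8 and 15 peaks with 1 against 9 list-specific, and a run of 8 over 43.3 kb (chr16:95421622-95464928). Tcf4, the E-protein of plasmacytoid dendritic and B cells, had 18 and 28 with 1 against 11. Foxp1, a forkhead repressor, had 49 and 59 with 3 against 10, and 4 against 5 at equal length. Xylt1, which starts glycosaminoglycan chains, had 24 and 34 with 1 against 10. Prex1, an activator of Rac, had 32 and 36 with 4 against 11, but 8 against 2 at equal length, where its direction turned.

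The myeloid transcription factor list had 31 of 396 Ly6CHi-RM peaks (7.83%, 5.57% to 10.9%) and 64 of 431 blood peaks (14.8%, 11.8% to 18.5%) list-specific, close to the 6.61% and 15.6% of all genes, and 48 against 42 at equal length. Growth factor and matrix genes had 3 of 72 (4.17%) and 16 of 87 (18.4%), also at most a few points from all genes, and 7 against 13 at equal length. Pdgfc, a platelet-derived growth factor, had 6 and 11 peaks with 0 against 5, and Tgfbi, a matrix protein of monocytes, 11 and 15 with 0 against 4. The interferon response list had 0 of 43 (0% to 8.20%) and 6 of 50 (12.0%, 5.62% to 23.8%), of which Usp18, which restrains interferon signalling, had 3, Oas1a 2 and Gbp5 1, and 1 against 4 at equal length.

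**Figure D5:**
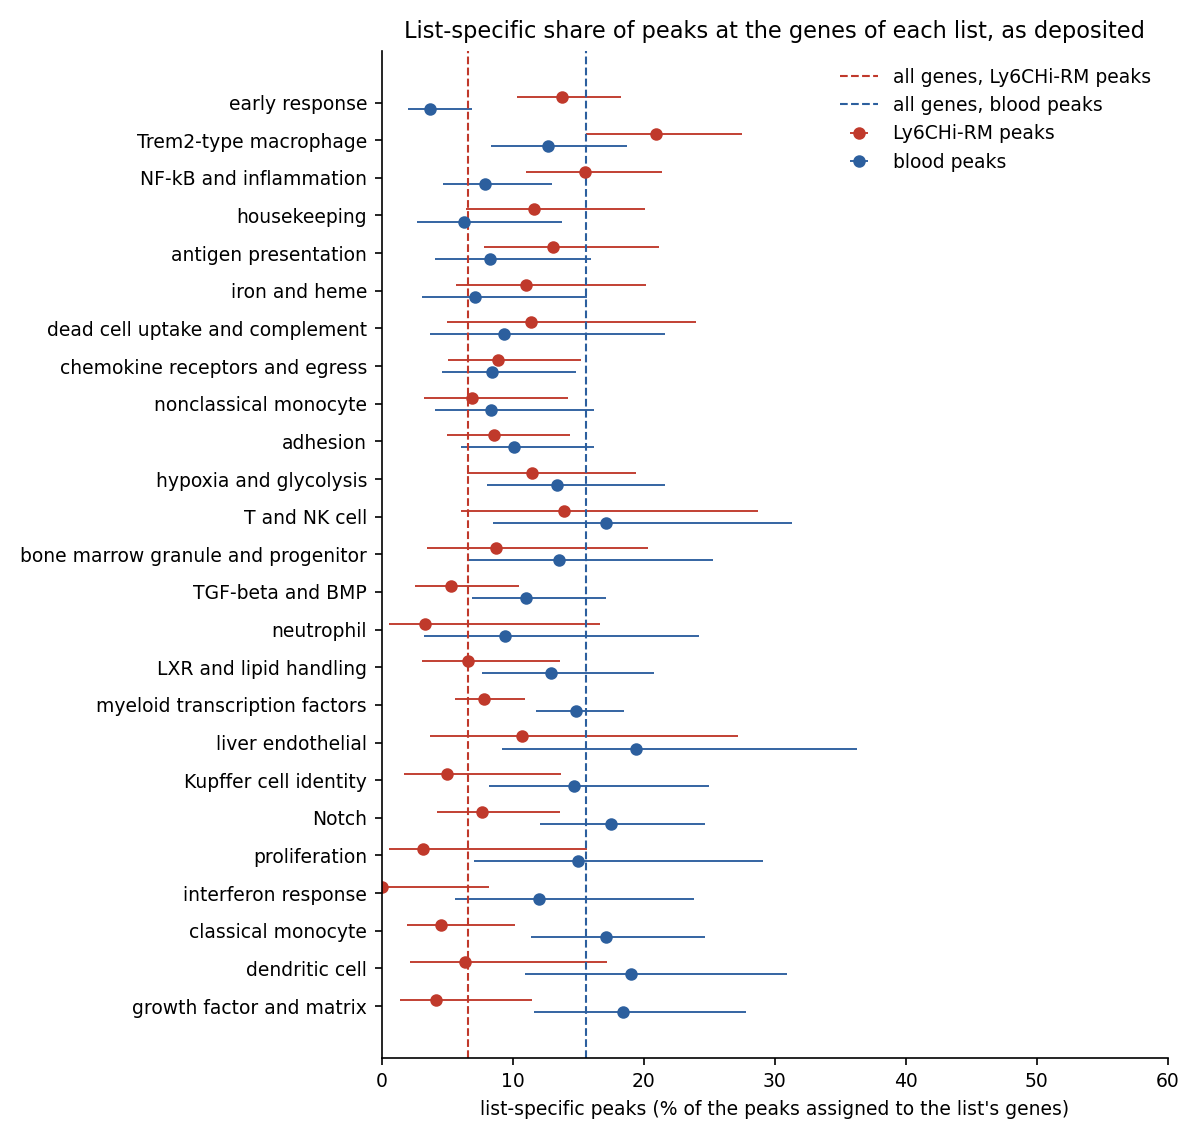
Percent of the peaks assigned to each list's genes that are list-specific (horizontal axis), for Ly6CHi-RM (red, upper point) and blood (blue, lower point) as deposited, with 95% Wilson intervals. Dashed lines mark all genes, at 6.61% for Ly6CHi-RM and 15.6% for blood, and lists with fewer than 20 peaks in either list are not drawn. Early response genes show 13.8% against 3.72%, the reverse of the order over all genes.

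The identity of the sorted cells was checked against marker genes. Classical monocyte genes had 110 Ly6CHi-RM and 123 blood peaks, and all 20 genes had a peak in at least 1 of the lists. Ly6c2 had 5 and 4 peaks, Ccr2 6 and 6, Itgam, encoding CD11b, 10 and 10, and Cx3cr1 9 and 9, with at most 1 list-specific peak in either direction. The list as a whole had 5 list-specific peaks in Ly6CHi-RM (4.55%, 1.96% to 10.2%) and 21 in blood (17.1%, 11.4% to 24.7%), near the 6.61% and 15.6% of all genes. Vcan, a matrix proteoglycan of classical monocytes, had 4 and 9 peaks with 0 against 5. Kupffer cell genes had 60 and 68 peaks with 3 against 10 list-specific and 5 against 3 at equal length, so their order depends on list length. Of the defining Kupffer genes Timd4 had 0 peaks in both lists and 17 in KC-H, and Clec4f 1 in both and 18 in KC-H. Cd163, a haemoglobin scavenger receptor, had 4 and 8 with 0 against 4, and 0 against 1 at equal length.

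Peaks at hepatocyte, neutrophil, lymphoid, dendritic, erythroid and platelet marker genes were mostly shared by both lists, except at Alb. The hepatocyte list had 12 Ly6CHi-RM and 22 blood peaks, with a peak at 6 of its 12 genes and with 1 against 12 list-specific (8.33% and 54.5%, beside 6.61% and 15.6% for all genes), and 2 against 10 at equal length. Hnf4a, a hepatocyte nuclear factor, had 8 and 7 peaks and none list-specific. Alb, encoding albumin (chr5:90460870-90476602), had 0 peaks in Ly6CHi-RM against 11 in blood, from 1.88 to 15.6 kb after the start, with tag counts of 23.8 to 53.8 and scores of 20 to 61. They filled 13.9 kb (chr5:90462654-90476600) in which all 5 other lists had 0 peaks, and 9 of the 11 were left at equal length. The other blood-specific hepatocyte peak was at Apob, and Cyp3a11, Cyp2e1, Fgb, Serpina1a, Tdo2 and Ahsg had 0 peaks in both lists. Neutrophil genes had 30 Ly6CHi-RM and 32 blood peaks with 1 against 3 list-specific, and 1 against 2 at equal length. T and NK cell genes had 36 and 41 with 5 against 7 (13.9% and 17.1%), and 9 against 5 at equal length, where the order turned. Klrb1c, an NK cell receptor, gave 12 and 11 of these peaks. B cell genes had 9 and 8 with 2 against 1, and 3 against 1 at equal length. Dendritic cell genes had 47 and 58 with 3 against 11 (6.38% and 19.0%), of which Dpp4 gave 4, and 7 against 7 at equal length. Flt3, a receptor of dendritic cells and progenitors, gave 11 and 12 of them and Batf3, a factor of dendritic cells, 11 and 13. As deposited, erythroid genes 7 and 11 with 0 against 3, all at Tal1, and platelet genes 4 and 5 with 0 against 1. The part of other cells in the blood-specific peaks was not tested.

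The 10 best-scored list-specific peaks differed in how widely they were found in the other liver lists, a difference that the rule partly sets. All 10 of Ly6CHi-RM were in Ly6CLo-RM, and they lay at Atf3, Serpina3f, Zfp469, Hilpda (2 peaks), Tfeb, Osm, Litaf, Gucy2g and Clec16a. Tfeb, a regulator of lysosome genes, had one of tag count 110.4, and Serpina3f, a protease inhibitor, one of 113.6. Of the 10 best-scored blood-specific peaks 6 were in none of the other 4 lists, among them those at Pomp, Slc52a3, Cmip, Fhit and Synpr. The top one was at Hdac5, a class IIa histone deacetylase, with a tag count of 127.6 and a score of 91.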

How the data were processed

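ATAC-seq peak lists of 2 populations were compared, each made by the authors from both libraries of its group. Bowtie2, HOMER, DESeq2 and the builds mm10 and GRCm38 are listed, per the submitters' processing notes, with no version and no stated use. How reads were filtered, whether they were shifted for transposase insertion and which reproducibility threshold was set is not given in the sources used here. Each deposited row gives a 200 bp peak with the authors' normalized tag count, a signal per peak, and the authors' peak score. Tag counts below 40 were whole multiples of 1 step, 0.521 in Ly6CHi-RM and 0.485 in blood, within a tolerance of 0.06 in tag count. Sequencing depth is unknown.

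Computations used scipy 1.17.1, numpy 2.4.6 and pandas 2.3.3 under Python 3.11.15, and plots matplotlib 3.10.9. Centres were compared at 1000 bp. Gene starts came from RefSeq promoters on GRCm38.p6 and were known for 17492 of 21900 protein-coding genes, with peaks on chromosome 18 left out of that share. A run was 3 or more list-specific peaks with neighbouring centres at most 20 kb apart. The code was run on simulated lists with planted differences, in which all shared peaks lay inside the distance limit. That run checks the code and not the accuracy of calls in the real lists. No genome was used, so motifs were counted in promoters and not, as had been planned, in peaks. Of 391 listed symbols 1 was not matched. Named genes were the 15 leaders per direction at either length, up to 4 members per list with the largest difference, a set of markers, and the genes of the 10 best-scored peaks and 5 largest runs per direction. Promoters, microRNAs and other genes named beside a list were chosen after their values were seen. The members and lists were chosen with earlier results of these data known. Results of 2 genes are not reported here.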

Additional observations from a re-analysis of the deposited data

How the results depend on the processing

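No paired analysis was possible because each group has 1 list made from both of its libraries, and leaving out a library could not be run for the same reason. Distances of 500 and 2000 bp gave 5369 and 3175 list-specific peaks for Ly6CHi-RM and 12612 and 9508 for blood. Calling peaks specific when no 1 bp overlapped gave 6797 for Ly6CHi-RM and 14896 for blood. The best-scored 50% of each list was compared with all peaks of the other list, not with its best-scored 50%. There 224 Ly6CHi-RM and 295 blood peaks were list-specific as deposited, and 327 and 126 at equal length, where the order turned. At the length of the shortest list the counts were 3772 and 4263. The share near gene starts was 10.7% for Ly6CHi-RM and 9.43% for blood at a distance of 500 bp, 4.04% and 4.77% within 500 bp of a start, 14.4% and 12.6% within 2500 bp, and 10.6% for blood in the best-scored 50%. With both ends of genes, an alternative chosen after seeing the data, it was 6.74% and 7.33%. The share found in Ly6CLo-RM was 92.9% and 21.0% in the best-scored 50%, and 54.2% and 12.6% at equal length. Genes with a list-specific peak numbered 195 and 254 in the best-scored 50%. Prex1 reversed, with a difference of 2 in the best-scored 50% and 6 at equal length. For single genes the difference between Ly6CHi-RM-specific and blood-specific peaks was followed over all settings, where 412 values stayed close, 90 moved further and 2 reversed. Close meant a change of at most 1 peak, or of the square root of the gene's list-specific peaks where that was larger. The cause of these changes was not tested.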

Other observations

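Runs of neighbouring list-specific peaks showed loci outside the gene lists. As deposited 128 Ly6CHi-RM-specific runs held 11.6% of the list-specific peaks and 479 blood-specific runs held 14.9%, but at equal length the shares were 14.8% and 8.69%, so the order turned. Beside Cd74, in a run assigned to Tcof1 on chromosome 18, 6 Ly6CHi-RM peaks stood against 0 in blood, 24 in Ly6CLo-RM, 10 in KC-H, 0 in KN-RM and 1 in KC-N. A run at the start of chromosome 9 (chr9:3001336-3030281) has no protein-coding gene within 100 kb. It had 18 Ly6CHi-RM and 6 blood peaks as deposited, with 18 to 24 in the other lists, where 9 of the 18 were list-specific. At equal length the run was longer (chr9:3001336-3035962), held 21 Ly6CHi-RM peaks, 20 of them list-specific, against 1 blood peak, and had more list-specific peaks than any other run of Ly6CHi-RM. As deposited its Ly6CHi-RM-specific peaks had scores of only 7 to 31 at tag counts of 32.3 to 83.3.

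A few loci of matrix genes, chosen after their values were seen, held blood-specific peaks. At equal length Sparc and Ltbp1 each had a run of 5 with 0 Ly6CHi-RM peaks, and Col1a1 had 1 Ly6CHi-RM and 3 blood peaks, all list-specific. The stellate cell list had 3 of 9 Ly6CHi-RM (33.3%) and 6 of 11 blood peaks (54.5%) list-specific, the liver endothelial list 3 of 28 (10.7%) and 6 of 31 (19.4%), and the cholangiocyte list 1 of 6 (16.7%) and 4 of 10 (40.0%), beside 6.61% and 15.6% for all genes. At equal length the stellate list had 3 against 5, the liver endothelial list 4 against 4 and the cholangiocyte list 1 against 2. Signalling lists were near all genes. Notch had 7.69% and 17.5% as deposited, and 13 list-specific peaks in both at equal length. TGF-beta and BMP had 5.26% and 11.0%, and 9 against 11 at equal length. Hjurp, with 10 and 17 peaks and 0 against 6 list-specific, had 24 in KC-H.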
